A study of Mus musculus with 21 samples.

Results

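Low Lgr5GFP cells were compared with Lgr5GFP-negative cells of the stomach corpus in control mice. Lgr5GFP is a green fluorescent reporter of the Lgr5 gene, and the cells were sorted by its brightness. The comparison uses 6 of the study's 21 arrays, chosen by their titles. These are 3 arrays of low cells and 3 of negative cells, all from mice that received no treatment. The remaining 15 arrays hold control high cells (3 arrays) and high, low and negative cells of tamoxifen-treated mice (4 arrays each), whose cells were isolated 24 hours after a dose of 0.27 mg/g. The labels give no strain, age, sex, promoter construct or number of animals per sort. The study's design text calls the arrays technical replicates from individual sorting runs, so p-values here measure only spread between sorts. That spread was pooled from all 21 arrays in their 6 groups. A gene that is uneven in another group can therefore miss a call although its 6 arrays here vary little. Low 1, 2 and 3 carry the same run numbers as negative 1, 2 and 3. One label field of the 3 negative arrays reads as low cells, while their titles and their cell population field read as negative. The level of Lgr5 below goes with the titles.

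The corpus is the acid-secreting part of the mouse stomach. Its glands hold pit cells at the surface, which make mucus, then dividing progenitors in the isthmus, mucous neck cells, acid-secreting parietal cells, and at the base chief cells, which store digestive enzymes in large granules. Tuft cells (chemosensory), endocrine cells and, in the surrounding tissue, mast cells and other immune cells are also found. Lgr5 is a receptor for R-spondins, secreted proteins that strengthen Wnt signalling, and in the intestine it marks stem cells. The study's title places Lgr5 in chief cells.

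Lgr5 drives the reporter by which cells were sorted, so its level checks the labels and is no finding. It stood at 7.49, 7.48 and 7.71 in low cells, against 4.06, 4.34 and 4.82 in negative cells (log2 signal). The difference was 3.15. Every value below is a log2 signal on the deposited scale unless a fold is named. As a guide to background, 95% of the 1105 olfactory receptor genes lay at or under a mean of 4.16 over the 21 arrays. Where the dimmer group lay at or under that guide, the fold is measured from the guide and given as "at least".

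Low 3 was the low array nearest to the negative arrays. Across all genes, its correlation with the 3 negative arrays was 0.970 to 0.976, whereas low 1 had 0.942 to 0.946 and low 2 had 0.956 to 0.960. The 3 negative arrays correlated at 0.987 to 0.991 with each other. Among the low arrays, low 2 and low 3 correlated at 0.981, low 1 and low 2 at 0.974, and low 1 and low 3 at 0.971. Low 3 also lay between low 1 or low 2 and the negative arrays for dividing-cell genes, as described below. Counts are therefore also given without low 3, or without other arrays, for many of the lists.

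Of 22180 genes tested, 1168 (5.27%) were called at a Benjamini-Hochberg adjusted p under 0.05 in limma. In low cells 411 genes (1.85%) were higher and 757 (3.41%) were lower. These shares are the background for every count of called list or family members below. The median fold was 2.19 among those higher and 2.29 among those lower, and 8 genes were at least 8-fold higher against 35 at least 8-fold lower. The 3 low arrays lay all above or all below the 3 negative arrays in 6010 genes (27.1%), 2951 higher (13.3%) and 3059 lower (13.8%), among them all 411 genes called higher and 752 of the 757 called lower. Without low 3, 396 genes were higher and 880 lower, and 1023 of the 1168 calls were shared. Without low 1, 189 were higher and 248 lower. Taking the shared sorting run as a block over the 6 arrays gave 830 higher and 1322 lower.

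**Figure D1:**
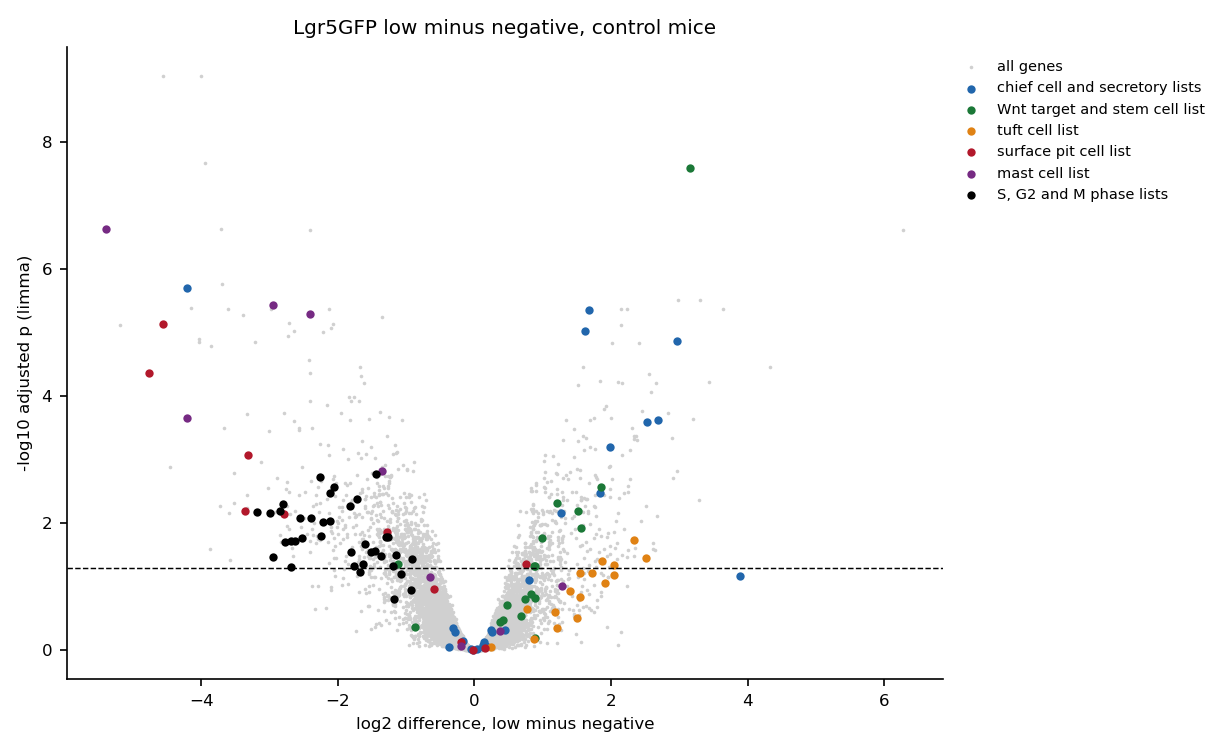
Log2 difference (low minus negative, x axis) against -log10 of the limma adjusted p (y axis) for all 22180 genes, with 6 groups of listed genes in colour. The dashed line is the threshold of 0.05. Wnt target and tuft cell genes lie mostly to the right, and surface pit, mast cell and cell cycle genes to the left. Chief cell and secretory machinery genes share 1 colour. Of these, 8 of 11 and 10 of 14 lie to the right, and Sytl2 of the secretory list lies far to the left (-4.22).

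In low cells the largest increase was that of Mug1, murinoglobulin 1, a secreted protease inhibitor. Its levels were 10.43, 9.26 and 9.09 in low cells, against 3.82, 3.42 and 2.69 in negative cells (log2 difference 6.28, SE 0.52, at least 43.3-fold higher, adjusted p = 2.49e-07). All 3 negative arrays lay under the background guide. Next were Cyp4v3, a fatty acid hydroxylase of the cytochrome P450 family (difference 3.63, adjusted p = 4.32e-06), and Sostdc1, a secreted protein that binds BMPs and the Wnt co-receptor Lrp6 (3.44, adjusted p = 6.03e-05). Cdo1, cysteine dioxygenase, which starts the breakdown of cysteine, varied little among arrays. It stood at 8.79, 8.92 and 8.73 in low cells, against 5.57, 5.46 and 5.51 in negative cells (log2 difference 3.30, SE 0.32, 9.83-fold higher, adjusted p = 3.09e-06). Reg3g, an antibacterial lectin, was at least 9.46-fold higher (adjusted p = 0.00425), and Gper1, a membrane receptor that responds to oestrogen, was 9.22-fold higher (adjusted p = 0.00023). Blm, a RecQ helicase known for its part in recombination repair, had 8.71, 9.27 and 8.24 in low cells, against 5.95, 5.79 and 5.53 in negative cells (log2 difference 2.98, SE 0.29, 7.91-fold higher, adjusted p = 3.13e-06). This helicase rose in cells in which most DNA replication genes fell, as given below. Cryab, a small heat shock chaperone, was 7.80-fold higher (adjusted p = 0.00151). Nrn1, a membrane-anchored neurite growth factor, was 7.52-fold higher (adjusted p = 0.00199). Furin, a protease that cleaves precursor proteins in the secretory pathway, was 7.42-fold higher (adjusted p = 0.000452). None of these 10 genes lost its call when any 1 of the 6 arrays was left out.

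**Figure D2:**
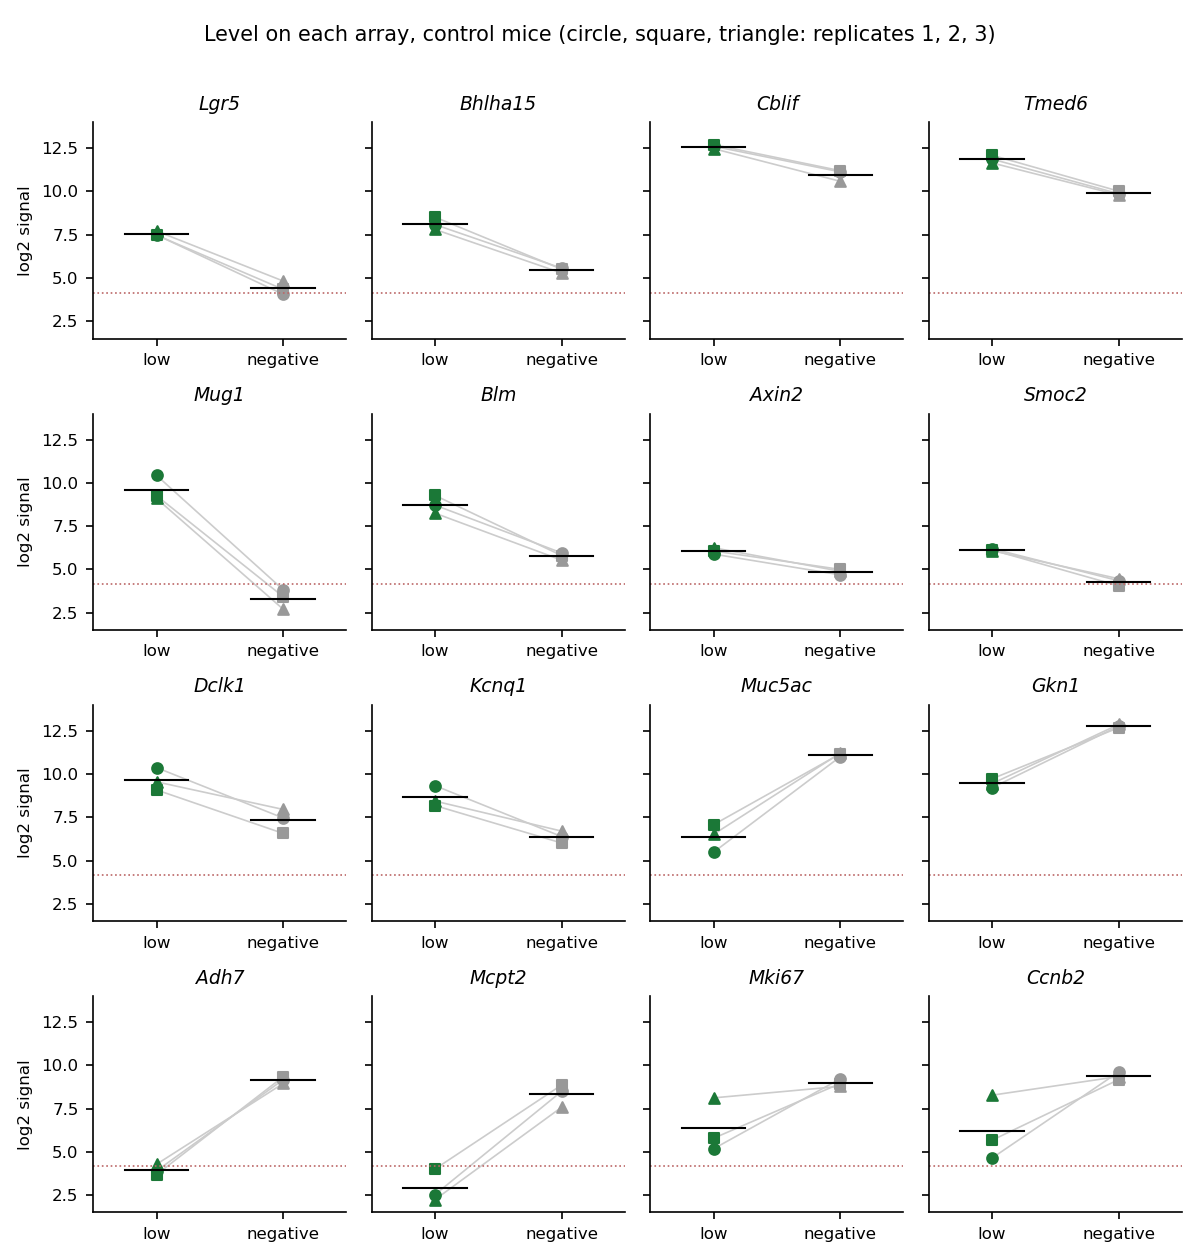
Log2 signal of 16 genes on each of the 6 arrays, low cells left and negative cells right. Grey lines join arrays of the same sorting run, black bars are group means, and the dotted line is the background guide of 4.16. In Mki67 and Ccnb2 the triangle of low 3 lies close to the negative arrays, whereas in Muc5ac, Gkn1 and Mcpt2 it does not.

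Chief cell enzymes differed unevenly. Of 11 measured zymogens and secreted enzymes, 4 were higher in low cells and none lower, with a median difference of 0.13 against 0.03 over all genes. Since these are bulk samples, fewer cells of a type and less RNA per cell cannot be told apart, here and for every cell type below. Chia1, an acidic chitinase, had 12.29, 12.45 and 12.22 in low cells, against 10.67, 10.79 and 10.46 in negative cells (log2 difference 1.68, SE 0.17, 3.202-fold higher, adjusted p = 4.46e-06). Cblif, gastric intrinsic factor, which in mice comes from chief cells, had 12.61, 12.71 and 12.48 in low cells, against 11.14, 11.20 and 10.59 in negative cells (log2 difference 1.62, SE 0.18, 3.08-fold higher, adjusted p = 9.39e-06). The low and negative arrays of both genes were well separated, although negative cells still gave a strong signal. Pnliprp2, a pancreatic lipase relative, was 5.79-fold higher (adjusted p = 0.00026). Rnase1, a secreted ribonuclease, was at least 5.24-fold higher (adjusted p = 1.38e-05), with 7.39, 6.20 and 6.06 in low cells, against 3.78, 3.18 and 3.79 in negative cells. Cym, chymosin, showed the widest difference of the list, 3.88, but its low arrays were uneven and it did not pass in the main fit (adjusted p = 0.0687). It stood at 11.47, 12.02 and 9.35 in low cells, against 6.46, 7.67 and 7.08 in negative cells. The pepsinogens did not pass either. Pgc, pepsinogen C, lay near the top of the scale in both groups, at 13.38, 13.42 and 13.27 in low cells, against 13.25, 13.24 and 13.19 in negative cells (adjusted p = 0.732). Pga5, pepsinogen A, gave 10.35, 11.03 and 11.07 in low cells, against 11.15, 11.43 and 10.99 in negative cells, and the groups overlapped. The highest value in the table is 13.55, and signals of highly expressed genes are compressed near the top of an array's range. The chief cell list gave 4 or 5 calls, all higher, when each array was left out. With the run as a block it gave 5 higher members over 21 arrays and 5 over 6, with none lower. No blocked value is given here for Cym.

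Genes of the secretory machinery of chief cells were called in both directions. Bhlha15, also known as Mist1, is a transcription factor that builds the granule machinery of serous cells. Its levels were 8.08, 8.51 and 7.81 in low cells, against 5.57, 5.51 and 5.29 in negative cells (log2 difference 2.68, SE 0.39, 6.42-fold higher, adjusted p = 0.000243), without overlap. Of 14 measured genes of Bhlha15 and the granule machinery, 4 were higher and 1 lower, with a median of 0.26. Besides Bhlha15 the higher members were Tmed6, a cargo receptor of the early secretory pathway (1.98, adjusted p = 0.000637), Copz2, a coat protein of Golgi vesicles (1.83, adjusted p = 0.0033), and Creb3l2, a transcription factor released by cleavage from the endoplasmic reticulum (1.27, adjusted p = 0.00693). The lower member was Sytl2, which tethers granules to the membrane through Rab27. It stood at 3.86, 3.82 and 4.79 in low cells, against 8.40, 8.45 and 8.26 in negative cells, and was at least 18.5-fold lower (adjusted p = 1.99e-06). All 5 calls held when any array was left out. With the run as a block, 5 members were higher and 1 lower, both over 21 arrays and over 6. Xbp1, which directs expansion of the endoplasmic reticulum, rose as well (log2 difference 1.07, SE 0.19, 2.09-fold higher, adjusted p = 0.00222). Of 19 measured genes for folding and stress in the endoplasmic reticulum, 2 rose and none fell (4 and none with the run as a block over 6 arrays), with a median of 0.36. They were Hyou1, a large chaperone (0.86, adjusted p = 0.00493), and Dnajc3, a co-chaperone (0.67, adjusted p = 0.00643). Hspa5, the main chaperone of that compartment, had 8.69, 8.69 and 8.91 in low cells, against 8.90, 8.89 and 9.26 in negative cells, and did not pass (adjusted p = 0.672).

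Wnt target genes were higher in low cells. Of 18 measured Wnt target and intestinal stem cell genes, 8 were higher, Lgr5 included, and 1 was lower, with a median of 0.88. Without Lgr5, which the sort fixes, 7 of 17 were higher. Smoc2, a secreted matrix protein enriched in intestinal stem cells, had 6.19, 6.12 and 6.08 in low cells, against 4.34, 4.04 and 4.45 in negative cells (log2 difference 1.85, SE 0.34, 3.61-fold higher, adjusted p = 0.00271). Axin2, a negative-feedback scaffold of the pathway and its most widely used readout, had 5.88, 6.06 and 6.24 in low cells, against 4.68, 4.99 and 4.89 in negative cells (log2 difference 1.21, SE 0.24, 2.31-fold higher, adjusted p = 0.00483). Neither gene overlapped between groups, and neither lost its call without any array. Nkd1, another feedback inhibitor, was at least 1.98-fold higher (adjusted p = 0.00652) and lost the call when low 1 was left out (adjusted p = 0.055). Tnfrsf19, a TNF receptor relative also called Troy, was 2.94-fold higher (adjusted p = 0.0118) and lost it when low 1, low 2, negative 1 or negative 2 was left out (adjusted p up to 0.0672, without low 2). Rnf43 and Znrf3 are membrane ligases that remove Frizzled receptors. Rnf43 differed by 0.99 (adjusted p = 0.0169) and lost its call when low 1, low 2, negative 1, negative 2 or negative 3 was left out (adjusted p up to 0.0923, without low 1). Znrf3 differed by 0.88 (adjusted p = 0.0476), lost its call when low 1, low 2, negative 1, negative 2 or negative 3 was left out (adjusted p up to 0.35, without low 1), and did not pass with the run as a block (adjusted p = 0.0641 over 21 arrays and 0.0534 over 6). Its difference was 0.55 without low 1. Ascl2, a stem cell transcription factor, was at least 1.60-fold higher (adjusted p = 0.0474), but lay low on the scale and lost its call when any 1 array was left out (adjusted p up to 0.187, without negative 1). Of the members without a call, Sox9, a progenitor transcription factor, had 9.38, 9.06 and 9.45 in low cells, against 8.79, 8.15 and 8.44 in negative cells (adjusted p = 0.129, or 0.0116 over 21 arrays and 0.0148 over 6 with the run as a block). Olfm4, a marker of intestinal stem cells, was near background, at 3.94, 4.60 and 4.60 in low cells, against 3.62, 3.62 and 3.69 in negative cells (adjusted p = 0.155, or 0.11 over 21 arrays and 0.0377 over 6 with the block). Cd44, a hyaluronan receptor, was uneven among low arrays, with 6.32, 5.16 and 7.79 in low cells, against 5.49, 5.30 and 5.79 in negative cells. The list gave 3 higher members without low 1, 4 without low 2, negative 1 or negative 2, 5 without negative 3 and 7 without low 3. With the run as a block it gave 8 higher and 1 lower over 21 arrays, and 11 higher and 2 lower over 6.

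In the main fit Myc was the one target called lower in low cells. It had 6.33, 5.93 and 6.36 in low cells, against 7.55, 7.14 and 7.32 in negative cells (log2 difference -1.13, SE 0.32, 2.18-fold lower, adjusted p = 0.0444). The call was lost when any 1 array was left out (adjusted p up to 0.182, without low 2). Wnt ligands and R-spondins gave no call among 23 measured genes (median 0.09), and Frizzled and other Wnt receptors gave none among 17 (median 0.15, with 1 higher in the block over 6 arrays). Of 13 secreted Wnt inhibitors, Sostdc1 alone was called. It had 8.96, 9.50 and 8.84 in low cells, against 5.91, 5.84 and 5.21 in negative cells (log2 difference 3.44, SE 0.44, 10.9-fold higher, adjusted p = 6.03e-05).

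Among 11 measured genes proposed as markers of other gastric stem or progenitor cells, 2 fell and none rose, although 9 differences were positive (median 0.32). With the run as a block the list gave 1 higher and 1 lower member over 21 arrays, and 3 higher and none lower over 6. A fit of only the 6 arrays without the block gave 2 higher and none lower. Leaving out low 2 gave 1 higher and none lower, and leaving out low 1 gave no call. The members that fell were Stmn1, a microtubule regulator of dividing cells (-1.21, adjusted p = 0.0408), and Iqgap3, a scaffold of proliferating cells (-0.99, adjusted p = 0.029). Stmn1 lost its call when low 1, low 2, negative 1, negative 2 or negative 3 was left out (adjusted p up to 0.252, without low 1), and its blocked adjusted p was 0.0559 over 21 arrays and 0.0607 over 6. Iqgap3 lost its call when low 1, low 2, negative 1, negative 2 or negative 3 was left out (adjusted p up to 0.228, without low 1), and its blocked adjusted p was 0.036 over 21 arrays and 0.0814 over 6. Lrig1, a brake on growth factor receptors, had 8.11, 7.98 and 8.47 in low cells, against 7.53, 7.24 and 7.45 in negative cells (adjusted p = 0.371, or 0.306 over 21 arrays and 0.0195 over 6 with the block). Sox2, a transcription factor of stomach progenitors, differed by 0.56 (adjusted p = 0.543). Runx1, whose enhancer has been used to label isthmus cells, differed by 0.32 (adjusted p = 0.599).

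Genes of dividing cells were lower in low cells. Of 19 measured G2 and M phase genes, 18 fell and none rose, with a median of -2.56. Of 18 S phase genes, 15 fell and none rose, with a median of -1.52. In both lists every measured member had a negative difference, and the groups did not overlap in 19 and 17 members. Over all genes, 3.41% were called lower and 13.8% were lower without overlap. Promoter sequences of both lists are shown because these genes move together. They are the 250 bases before the annotated start of called members, from RefSeq with GRCm38.p6 positions, 5′ to 3′ on the gene's strand.

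For the G2 and M phase list, capitals mark TTTGAA (the letters of a cell cycle homology region) and CCAAT (the letters bound by NF-Y), read on either strand, so that TTCAAA and ATTGG also count. The members shown are the 3 with the smallest adjusted p whose window holds TTTGAA. Kif11, a motor protein of the spindle, lies at chr19:37376132-37376381, plus strand. Ccnb2, cyclin B2, lies at chr9:70421555-70421804, minus strand. Cdk1, the kinase that starts mitosis, lies at chr10:69352913-69353162, minus strand.
Kif11: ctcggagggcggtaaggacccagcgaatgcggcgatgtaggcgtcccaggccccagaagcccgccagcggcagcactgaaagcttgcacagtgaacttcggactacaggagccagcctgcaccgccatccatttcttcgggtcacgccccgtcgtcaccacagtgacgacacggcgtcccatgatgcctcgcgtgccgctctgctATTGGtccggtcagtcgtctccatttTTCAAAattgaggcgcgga
Ccnb2: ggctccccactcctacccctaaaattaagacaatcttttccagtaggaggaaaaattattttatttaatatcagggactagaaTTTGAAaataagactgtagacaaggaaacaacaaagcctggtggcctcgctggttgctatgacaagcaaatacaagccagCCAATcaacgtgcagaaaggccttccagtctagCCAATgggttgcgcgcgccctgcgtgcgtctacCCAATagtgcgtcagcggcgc
Cdk1: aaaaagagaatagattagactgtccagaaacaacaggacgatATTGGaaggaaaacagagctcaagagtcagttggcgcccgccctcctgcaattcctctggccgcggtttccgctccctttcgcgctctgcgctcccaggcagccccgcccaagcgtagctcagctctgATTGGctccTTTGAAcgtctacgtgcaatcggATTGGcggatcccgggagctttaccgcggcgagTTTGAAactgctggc

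For the S phase list, capitals mark the core letters of E2F sites on either strand, TTTCCCG with the variants TTTGGCG and also TTTCGCG or else TTTGCCG, and overlapping matches run together. The 2 called members with the smallest adjusted p that hold them are Mcm5, a subunit of the replicative helicase (chr8:75109259-75109508, plus strand), and Dtl, which marks replication factors for degradation (chr1:191575545-191575794, minus strand).
Mcm5: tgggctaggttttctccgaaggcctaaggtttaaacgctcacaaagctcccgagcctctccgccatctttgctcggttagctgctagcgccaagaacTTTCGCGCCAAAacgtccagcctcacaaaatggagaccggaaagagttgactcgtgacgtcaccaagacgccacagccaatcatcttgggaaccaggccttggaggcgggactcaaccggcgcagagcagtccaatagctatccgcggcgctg
Dtl: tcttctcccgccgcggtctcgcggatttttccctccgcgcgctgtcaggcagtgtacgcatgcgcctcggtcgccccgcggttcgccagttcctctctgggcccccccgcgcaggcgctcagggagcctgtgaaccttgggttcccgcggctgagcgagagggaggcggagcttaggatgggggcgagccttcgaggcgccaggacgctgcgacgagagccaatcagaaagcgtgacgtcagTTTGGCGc

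TTTGAA was found in 7 of 15 G2 and M phase windows (46.7%), in 1 of 15 S phase windows (6.67%) and in 14.2% of the 16990 windows of all tested genes. CCAAT was found in 13 of 15 G2 and M phase windows (86.7%), 10 of 15 S phase windows (66.7%) and 35.6% of all. The E2F letters stood in 5 of 15 S phase windows (33.3%), 3 of 15 G2 and M phase windows and 6.87% of all. Other letters were searched too. Those of TCF sites, CTTTGAT or CTTTGAA, stood in 1 of 11 Wnt target windows (9.09%), 3 of 15 G2 and M phase windows and 6.91% of all. CAGCTG stood in 1 of 9 windows of the Bhlha15 list (11.1%) and 12.2% of all. A match is a run of letters and does not show that a factor binds there.

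Averaged over each list, the fall was deepest in low 1 and shallowest in low 3. Single members such as Cdk1 and Cenpe were lowest in low 2. Kif11 had 3.94, 4.54 and 6.49 in low cells, against 8.25, 7.53 and 7.74 in negative cells (log2 difference -2.85, SE 0.59, 7.20-fold lower, adjusted p = 0.00643). Ccnb2 had 4.64, 5.67 and 8.28 in low cells, against 9.62, 9.18 and 9.36 in negative cells (log2 difference -3.19, SE 0.67, 9.10-fold lower, adjusted p = 0.00663). In both, low 3 lay nearer to the negative arrays than to low 1, and both calls were lost when low 1 was left out (adjusted p = 0.0611 and 0.064). Cdk1 had 5.40, 4.77 and 7.55 in low cells, against 9.08, 8.86 and 8.78 in negative cells (adjusted p = 0.00701), and its call was lost when low 1 or low 2 was left out (adjusted p up to 0.0581, without low 2). Bub1, a checkpoint kinase, was at least 6.76-fold lower (adjusted p = 0.00501) and held without each array. Cenpe, a kinetochore motor, was 5.88-fold lower (adjusted p = 0.00822), with the call lost when low 1 or low 2 was left out (adjusted p up to 0.0669, without low 1). Mki67, the usual marker of cycling cells, had 5.18, 5.79 and 8.12 in low cells, against 9.22, 8.95 and 8.79 in negative cells (adjusted p = 0.0191). Its call was lost when low 1, low 2, negative 1, negative 2 or negative 3 was left out (adjusted p up to 0.147, without low 1). Plk1, a mitotic kinase, was the member without a call (adjusted p = 0.156).

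Among S phase genes called under every omission of 1 array were Pcna, the sliding clamp of DNA polymerase (log2 difference -1.44, SE 0.25, 2.71-fold lower, adjusted p = 0.0017), Mcm4 (-2.26, adjusted p = 0.00186) and Mcm5 (-1.72, adjusted p = 0.00418) of the replicative helicase, Rrm1 of ribonucleotide reductase (-2.06, adjusted p = 0.00267) and Gins1 of the replication fork (-2.11, adjusted p = 0.00336). Pcna had 8.38, 8.66 and 9.32 in low cells, against 10.28, 10.24 and 10.15 in negative cells. Mcm4 had 4.73, 4.72 and 6.01 in low cells, against 7.75, 7.16 and 7.32 in negative cells. In both the low and negative arrays were apart, with low 3 the highest of the low arrays. Dtl, shown above, was at least 1.61-fold lower (adjusted p = 0.0164) and lost its call when low 1, low 2, negative 1 or negative 3 was left out (adjusted p up to 0.134, without low 1).

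Averaged over the list, G2 and M phase genes stood at 4.56, 5.11 and 6.97 in low cells, against 8.21, 7.71 and 7.77 in negative cells. S phase genes stood at 5.16, 5.27 and 6.27 in low cells, against 7.32, 6.92 and 7.17 in negative cells. Without low 3, 19 G2 and M phase and 17 S phase genes were lower. Without low 1, 1 and 6 were lower, and without low 2, 3 and 6. Without negative 1, 2 or 3, there were 6, 10 and 9 G2 and M phase calls and 6, 10 and 6 S phase calls. The medians of the G2 and M phase list ran from -3.24 (without low 3) to -1.91 (without low 1).

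**Figure D3:**
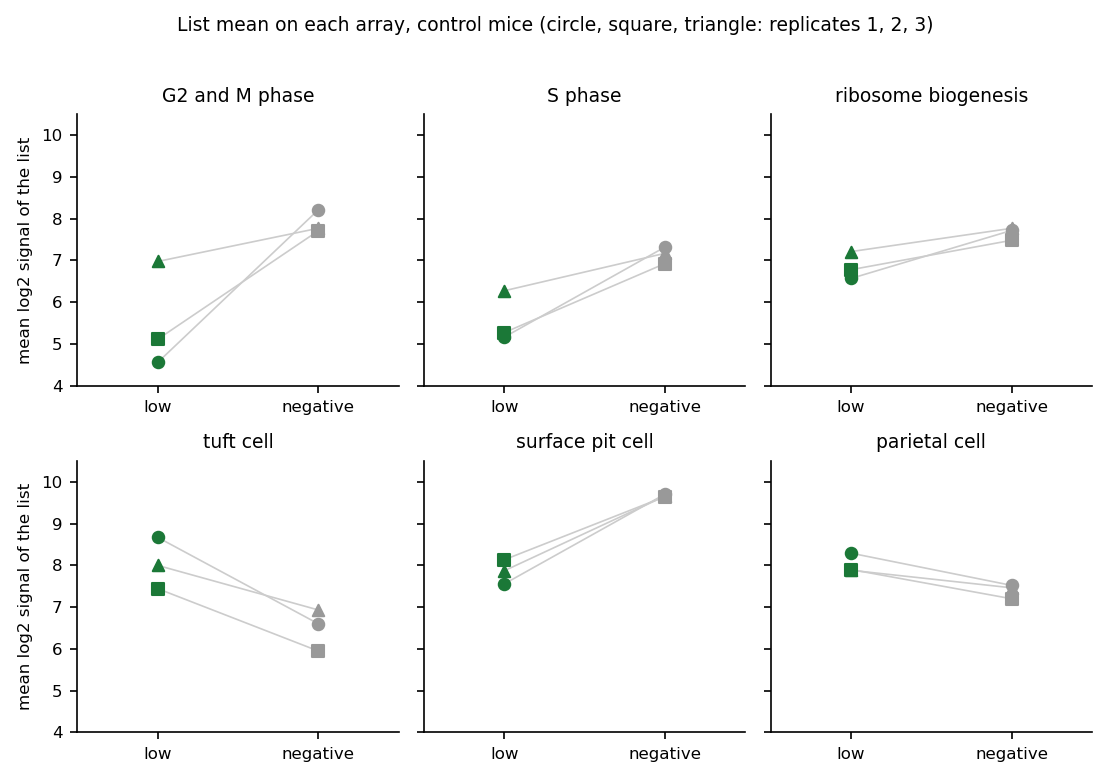
Mean log2 signal of 6 gene lists on each array (y axis), low cells left and negative cells right, with grey lines joining arrays of the same sorting run. For the G2 and M phase list low 3 (triangle) stands at 6.97, above low 1 (4.56) and low 2 (5.11) and below all 3 negative arrays.

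Ribosome biogenesis genes ran the same way. Of 14 measured, 4 fell and none rose, all 14 differences were negative, and the median was -0.71. Nop58, a core protein of box C/D particles, had 6.60, 7.35 and 8.11 in low cells, against 9.10, 8.80 and 9.09 in negative cells (log2 difference -1.65, SE 0.31, 3.13-fold lower, adjusted p = 0.00295) and kept its call without each array. Dkc1, which modifies ribosomal RNA (-1.40, adjusted p = 0.0125), lost its call when low 1, low 2, negative 1 or negative 3 was left out (adjusted p up to 0.0731, without low 1). Ddx21, a nucleolar helicase (-1.16, adjusted p = 0.0138), lost it when low 1 or negative 3 was left out (adjusted p up to 0.116, without low 1). Wdr12, a large-subunit assembly factor (-0.88, adjusted p = 0.0213), lost it when low 1, low 2, negative 1 or negative 3 was left out (adjusted p up to 0.151, without low 1). The list gave 1 call without low 1 or negative 3, 2 without low 2 or negative 1, and 6 without low 3. With the run as a block over the 6 arrays it gave 7.

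Surface pit cell genes were lower in low cells. Of 11 measured, 6 fell and 1 rose, with a median of -1.28. Muc5ac, the gel-forming mucin of pit cells, had 5.48, 7.07 and 6.52 in low cells, against 11.001, 11.17 and 11.21 in negative cells (log2 difference -4.77, SE 0.59, 27.3-fold lower, adjusted p = 4.34e-05). Mucl3, a mucin-like membrane protein, had 7.35, 8.14 and 6.84 in low cells, against 12.20, 11.98 and 11.84 in negative cells (log2 difference -4.56, SE 0.49, 23.6-fold lower, adjusted p = 7.37e-06). The levels of both lay far apart, and the negative arrays lay close together. The gastrokines Gkn1 and Gkn2, secreted proteins of the surface mucus, fell too. Gkn1 had 9.21, 9.73 and 9.45 in low cells, against 12.77, 12.68 and 12.87 in negative cells (log2 difference -3.31, SE 0.54, 9.93-fold lower, adjusted p = 0.000849), and Gkn2 was 10.3-fold lower (adjusted p = 0.0064). Tff1, the trefoil peptide that accompanies Muc5ac, was 6.88-fold lower (adjusted p = 0.00713). Its levels were 8.63, 9.98 and 10.51 in low cells, against 12.57, 12.35 and 12.55 in negative cells, and the call was lost when low 1 was left out (adjusted p = 0.0685). Anxa10, an annexin of gastric epithelium (-1.28, adjusted p = 0.0137), lost its call when low 1 or negative 3 was left out (adjusted p up to 0.103, without low 1). Psca, a lipid-anchored surface protein, was the member that rose (0.76, adjusted p = 0.0439), and that call was lost when any 1 array was left out (adjusted p up to 0.224, without negative 3) and with the run as a block over 21 arrays (adjusted p = 0.0517). Muc1, a membrane mucin, had 11.13, 11.10 and 11.19 in low cells, against 11.15, 11.22 and 11.12 in negative cells, and the groups overlapped. The pit cell list averaged 7.55 to 8.13 in low cells and 9.64 to 9.70 in negative cells. The list gave 4 to 6 lower members when each array was left out. With the run as a block it gave 7 lower and none higher over 21 arrays, and 6 lower and 1 higher over 6.

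Many of the largest decreases were of genes outside the lists. Mcpt2 is described with the mast cell genes. Adh7, a retinol and ethanol dehydrogenase of the upper digestive tract, had 3.90, 3.69 and 4.28 in low cells, against 9.17, 9.34 and 8.95 in negative cells (log2 difference -5.20, SE 0.56, at least 31.9-fold lower, adjusted p = 7.72e-06). Sptssb, a small subunit of the enzyme that starts sphingolipid synthesis, had 3.84, 3.93 and 3.55 in low cells, against 8.42, 8.28 and 8.30 in negative cells (log2 difference -4.56, SE 0.26, at least 18.1-fold lower, adjusted p = 9.24e-10). Mogat1, which makes diacylglycerol, had 5.06, 5.07 and 5.30 in low cells, against 9.35, 9.11 and 8.999 in negative cells (log2 difference -4.01, SE 0.23, 16.1-fold lower, adjusted p = 9.24e-10). These 3 genes were far lower in every low array, low 3 included. Sult1b1, a sulfotransferase for phenols, was 17.7-fold lower (adjusted p = 4.11e-06). Nqo1, a quinone reductase, was 16.4-fold lower (adjusted p = 1.28e-05). Gsdma2, a member of the gasdermin family, was at least 9.74-fold lower (adjusted p = 1.43e-05). Teddm3, a membrane protein, was 21.9-fold lower (adjusted p = 0.00131) but uneven, with 4.41, 4.52 and 7.52 in low cells, against 9.99, 9.97 and 9.86 in negative cells. None of these 7 genes lost its call without any array.

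Of 11 measured genes of simple epithelium, 2 were lower in low cells and 1 higher, with a median of -0.18. Krt19, a keratin of isthmus and pit cells, had 6.76, 7.27 and 8.06 in low cells, against 9.56, 9.48 and 9.45 in negative cells (log2 difference -2.13, SE 0.35, 4.38-fold lower, adjusted p = 0.000853). Krt8 differed by -0.58 (adjusted p = 0.0279) and lost its call when low 1, low 2, negative 1, negative 2 or negative 3 was left out (adjusted p up to 0.14, without low 2). Epcam, a marker of all epithelial cells, had 9.47, 9.20 and 9.58 in low cells, against 9.28, 9.26 and 9.28 in negative cells (adjusted p = 0.827). Its groups overlapped. Ehf, an epithelial transcription factor, was the higher member (0.91, adjusted p = 0.0451), with the call lost when low 1, low 3, negative 1, negative 2 or negative 3 was left out (adjusted p up to 0.275, without low 1). Of 12 genes of metaplasia and injury, 2 fell, S100a6, a calcium-binding protein (-2.14, adjusted p = 0.00681), and Dmbt1, a secreted scavenger receptor (-1.89, adjusted p = 0.0395). The list gave 1 higher and 3 lower members when the run was a block over 6 arrays. Both named genes were uneven, as low 3 stood well above low 1 and low 2. S100a6 had 8.23, 8.37 and 9.96 in low cells, against 11.07, 10.82 and 11.09 in negative cells, and lost its call when low 1 was left out (adjusted p = 0.0611). Dmbt1 had 5.96, 6.90 and 8.84 in low cells, against 8.95 to 9.44 in negative cells, and lost its call when low 1, low 2, negative 1, negative 2 or negative 3 was left out (adjusted p up to 0.296, without low 1), with a difference of -1.26 without low 1.

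Most parietal cell genes stood higher in low cells. Of 19 measured differences 15 were positive, with a median of 0.47. In 10 genes the low arrays lay all above the negative arrays and in 3 all below, against 13.3% and 13.8% of all genes. None was called lower (3.41% over all genes) and 3 were called higher (1.85% over all genes). They were Kcnq1, the potassium channel that serves acid secretion (2.28, adjusted p = 0.000708), Aqp4, a water channel (1.76, adjusted p = 0.000681), and Slc4a2, a bicarbonate exchanger (1.18, adjusted p = 0.00926), whose call was lost when low 1 or negative 2 was left out (adjusted p up to 0.0802, without low 1). Kcnq1 had 9.33, 8.18 and 8.44 in low cells, against 6.39, 6.01 and 6.70 in negative cells. Aqp4 had 6.90, 5.65 and 5.51 in low cells, against 4.29, 4.19 and 4.29 in negative cells. In each of them low 1 was the highest array. The subunits of the proton pump did not pass, although their arrays did not overlap. Atp4a had 12.44, 12.26 and 12.10 in low cells, against 10.91, 10.30 and 10.86 in negative cells (adjusted p = 0.0636, or 0.0202 over 21 arrays and 0.00253 over 6 with the run as a block). Atp4b had 12.61, 12.39 and 12.30 in low cells, against 11.19, 10.41 and 11.09 in negative cells (adjusted p = 0.282, or 0.112 over 21 arrays and 0.00309 over 6 with the block). With the block the list had 6 higher members over 21 arrays, and 7 higher and 1 lower over 6. Without low 3, 3 members were higher and 1 lower. Without low 1 or negative 2, 2 were higher and none lower. The list averaged 7.88 to 8.29 in low cells and 7.20 to 7.52 in negative cells.

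The mucous neck cell list gave no call among 7 measured genes (median -0.12), and with the run as a block it gave 1 higher member over 21 arrays and 2 over 6. Muc6, the mucin of neck cells, had 10.29, 11.16 and 11.46 in low cells, against 11.06, 11.60 and 10.77 in negative cells (adjusted p = 0.957). Tff2, a trefoil peptide also known as spasmolytic polypeptide, had 11.91, 12.08 and 12.63 in low cells, against 12.67, 12.80 and 12.72 in negative cells (adjusted p = 0.559). The groups overlapped for Muc6. For Tff2 every low array lay below every negative array, by a narrow margin. Gkn3, a gastrokine of neck cells, had 11.52, 11.76 and 12.25 in low cells, against 9.30, 10.26 and 10.11 in negative cells (adjusted p = 0.0698, or 0.0193 over 21 arrays and 0.00118 over 6 with the run as a block).

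Tuft cell genes stood higher in low cells, with a spread between runs. All 16 measured differences were positive, with a median of 1.55. In 14 of them the low arrays lay all above the negative arrays, against 13.3% of all genes. The number called higher was 4, against 1.85% of all genes. Dclk1, a kinase that marks tuft cells, had 10.37, 9.09 and 9.55 in low cells, against 7.46, 6.57 and 7.96 in negative cells (log2 difference 2.34, SE 0.57, 5.06-fold higher, adjusted p = 0.0184). Trpm5, the cation channel of taste and tuft cells, had 10.06, 8.31 and 9.21 in low cells, against 7.26, 6.72 and 7.45 in negative cells (log2 difference 2.05, SE 0.59, 4.14-fold higher, adjusted p = 0.0454). In each run low exceeded negative, but low 2 and negative 2 were the lowest of their groups and low 1 the highest. Alox5 and Alox5ap, which start leukotriene synthesis, differed by 2.52 (adjusted p = 0.0349) and by 1.87 (adjusted p = 0.0392). None of these 4 calls held under every omission of 1 array, although the differences stayed positive. They ran from 1.96 to 2.65 for Dclk1, 1.62 to 2.49 for Trpm5, 1.99 to 3.02 for Alox5 and 1.55 to 2.18 for Alox5ap. Dclk1 lost its call when low 1, negative 1 or negative 2 was left out (adjusted p up to 0.124, without low 1), Alox5 when low 1, low 3, negative 1, negative 2 or negative 3 was left out (adjusted p up to 0.225, without low 1), Alox5ap when low 1, low 3, negative 1, negative 2 or negative 3 was left out (adjusted p up to 0.215, without low 1), and Trpm5 when low 1, low 3, negative 1, negative 2 or negative 3 was left out (adjusted p up to 0.268, without low 1). No member was called without low 1, negative 1 or negative 2, 1 without low 3 or negative 3, and 5 without low 2. With the run as a block, 8 of 16 were higher over 21 arrays and 13 over 6. The list averaged 8.67, 7.44 and 7.998 in low cells, against 6.60, 5.95 and 6.93 in negative cells. Pou2f3, the factor that defines tuft cells, did not pass (1.91, adjusted p = 0.0872).

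Hormone and endocrine genes gave 1 call. Of 14 shared endocrine genes, 1 was higher and none lower, and none of 11 histamine and hormone genes was called. The block by run over 6 arrays gave 3 higher shared genes. Without low 3, 1 histamine or hormone gene was called lower, and no shared gene was called. Cpe, a carboxypeptidase that trims prohormones, had 9.14, 8.25 and 9.10 in low cells, against 6.73, 6.59 and 7.20 in negative cells (log2 difference 1.99, SE 0.53, 3.97-fold higher, adjusted p = 0.0301), and lost its call when low 1, low 3, negative 1, negative 2 or negative 3 was left out (adjusted p up to 0.143, without low 1). Chga, chromogranin A, had 10.45, 11.07 and 10.69 in low cells, against 9.94, 10.15 and 10.21 in negative cells (adjusted p = 0.817, or 0.765 over 21 arrays and 0.0431 over 6 with the block). Hdc, which makes histamine, Ghrl, ghrelin, and Sst, somatostatin, differed by 0.47 (adjusted p = 0.73), by 0.07 (adjusted p = 0.99) and by 0.62 (adjusted p = 0.836).

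Mast cell genes were lower in low cells. Of 9 measured, 5 fell and none rose, with a median of -1.35, and this count was 5 or 6 when each array was left out. With the run as a block, 6 fell and none rose over 21 arrays, and 6 fell and 1 rose over 6. Mcpt2, a protease of mucosal mast cells, showed the largest decrease of all named genes. It had 2.53, 4.01 and 2.24 in low cells, against 8.50, 8.87 and 7.58 in negative cells (log2 difference -5.39, SE 0.43, at least 17.9-fold lower, adjusted p = 2.37e-07). Mcpt1, a related protease of mucosal mast cells, had 3.33, 4.85 and 2.76 in low cells, against 8.69, 8.67 and 6.22 in negative cells (log2 difference -4.21, SE 0.60, at least 13.0-fold lower, adjusted p = 0.000223). All 3 low arrays lay under the background guide for Mcpt2, and all but low 2 for Mcpt1. Cpa3, a mast cell carboxypeptidase, was at least 3.02-fold lower (adjusted p = 3.69e-06), and Tpsb2, a tryptase, was at least 3.37-fold lower (adjusted p = 5.07e-06). Cma1, a chymase, was also called (-1.35, adjusted p = 0.00152), with both group means at or under the guide. Kit, a receptor that mast cells share with other cells, had the opposite sign (1.28, adjusted p = 0.099). The mast cell list averaged 3.27 to 3.90 in low cells and 4.77 to 5.56 in negative cells.

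Of 16 other immune genes, 3 fell and none rose, and 7 lay at or under the guide in both groups. Lyz2, lysozyme of macrophages, had 3.34, 3.34 and 2.79 in low cells, against 6.68, 4.98 and 5.99 in negative cells (adjusted p = 0.0201). Tyrobp, an adaptor of myeloid cells, differed by -1.53 (adjusted p = 0.0465), and Cd68, a macrophage lysosomal protein, by -0.90 (adjusted p = 0.047). Lyz2 lost its call when low 1, low 2, low 3, negative 1 or negative 3 was left out (adjusted p up to 0.115, without negative 1), Tyrobp when any 1 array was left out (adjusted p up to 0.247, without negative 1), and Cd68 when low 1, low 2, negative 1, negative 2 or negative 3 was left out (adjusted p up to 0.258, without low 1) and with the run as a block over 21 arrays (adjusted p = 0.0512). The list gave no call without low 1, low 2, negative 1 or negative 3, and 1 without low 3 or negative 2. It gave 6 lower and 1 higher when the run was a block over 6 arrays. Ptprc, CD45, the pan-leukocyte marker, had the opposite sign, with 7.67, 6.11 and 6.21 in low cells, against 5.34, 4.18 and 5.24 in negative cells (adjusted p = 0.246, or 0.128 over 21 arrays and 0.00579 over 6 with the block). The immune list averaged 3.82 to 4.14 in low cells and 4.10 to 4.44 in negative cells. Of 16 fibroblast and smooth muscle genes, Dcn, decorin, was called (0.97, adjusted p = 0.0109), and lost the call when low 1 or negative 3 was left out (adjusted p up to 0.0732, without low 1). Its low arrays lay near the guide, at 4.44, 4.17 and 4.17 in low cells, against 3.44, 3.29 and 3.15 in negative cells. No gene was called in the endothelial (11), neural (5), squamous (8) or pancreatic acinar (7) lists. The part of mast and other immune cells, pit cells and tuft cells in the differences of other genes was not tested.

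**Figure D4:**
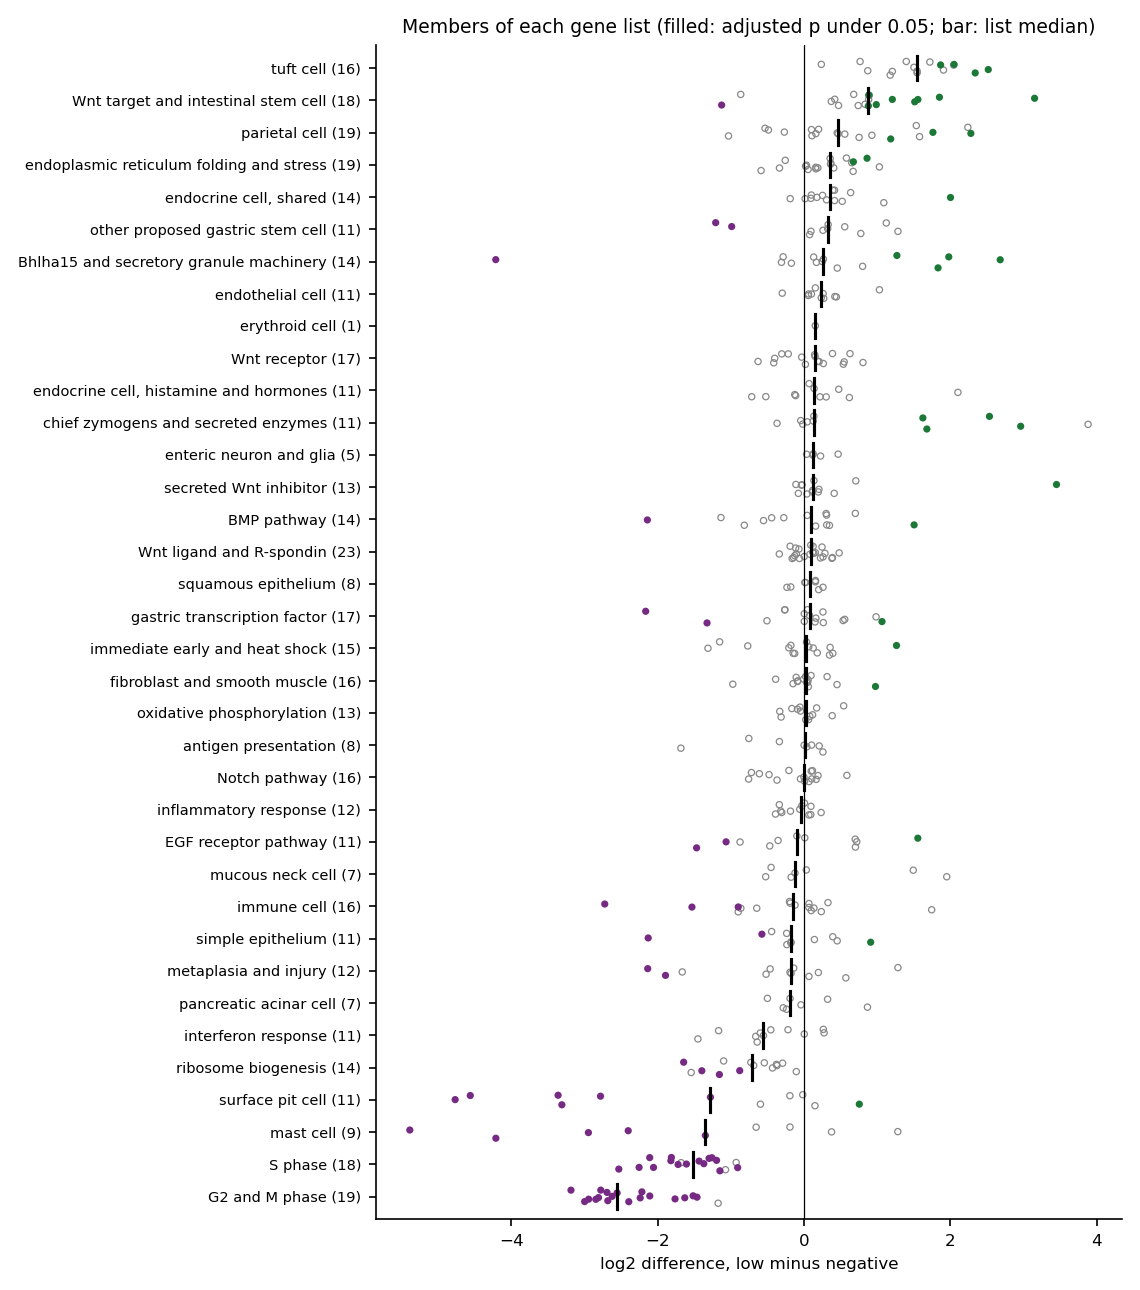
Log2 difference (low minus negative, x axis) of every measured member of 36 gene lists, ordered by list median, with the number measured in brackets. Filled points passed an adjusted p of 0.05 and bars are medians. The G2 and M phase list has the lowest median (-2.56) and the tuft cell list the highest (1.55).

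Among signalling genes the BMP list gave 1 higher and 1 lower call of 14. Id1, a BMP target that blocks differentiation factors, had 5.25, 6.12 and 7.25 in low cells, against 8.23, 8.41 and 8.42 in negative cells (log2 difference -2.14, SE 0.33, 4.41-fold lower, adjusted p = 0.000586). Bmpr1b, a BMP receptor, was at least 1.22-fold higher (adjusted p = 0.00523). Both calls held without each array, although low 3 was the nearest to the negative arrays in each. The EGF receptor list gave 1 higher and 2 lower calls of 11, and 2 higher and 3 lower with the run as a block over 6 arrays. Egf was at least 2.93-fold higher (adjusted p = 0.00643), with the call lost when low 2 was left out (adjusted p = 0.0536). Its receptor Egfr differed by -1.47 (adjusted p = 0.0493) and lost the call when low 1, low 2, negative 1, negative 2 or negative 3 was left out (adjusted p up to 0.287, without low 1). The ligand Btc, betacellulin, differed by -1.07 (adjusted p = 0.0257), and lost the call when low 1, low 2, negative 1, negative 2 or negative 3 was left out (adjusted p up to 0.114, without low 2) and with the run as a block over 21 arrays (adjusted p = 0.0505). Of 16 Notch pathway genes none was called (median difference 0.00). The block by run gave 1 lower member over 21 arrays, and 1 higher and 2 lower over 6.

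Transcription factors of the stomach gave 1 higher call, Xbp1, and 2 lower calls of 17. Klf4, a factor of differentiated surface epithelium, had 6.91, 6.24 and 7.10 in low cells, against 9.08, 8.79 and 8.87 in negative cells (log2 difference -2.17, SE 0.29, 4.49-fold lower, adjusted p = 0.000137). Foxq1, a factor needed for pit cell mucin, differed by -1.33 (adjusted p = 0.041), and lost its call when low 1, low 2, negative 1, negative 2 or negative 3 was left out (adjusted p up to 0.215, without low 1). Jun was the one immediate early gene called of 15 (1.26, adjusted p = 0.0442), and lost its call when low 1, low 2, negative 2 or negative 3 was left out (adjusted p up to 0.261, without low 1). No gene was called in the oxidative phosphorylation (13), interferon response (11), antigen presentation (8) or inflammatory response (12) lists. In the fit of 6 arrays with the run as a block, 1 interferon response gene and 2 antigen presentation genes were lower. Of the immediate early list, 1 gene was higher and 2 were lower with the block over 21 arrays and over 6. The erythroid list had 1 measured gene, which was not called. Across these uncalled lists the medians ran from -0.56 (interferon response) to 0.15 (erythroid).

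The control high cells give the level on the other side of the gate. They are set beside the same low arrays. Cblif, Chia1 and Bhlha15 averaged 12.64, 12.29 and 7.73 in high cells and 12.60, 12.32 and 8.14 in low cells, and none passed the test (adjusted p = 0.99, 0.993 and 0.874). Rnase1 averaged 3.61 in high cells and 6.55 in low cells (adjusted p = 8.8e-05), and Aqp4 averaged 4.31 and 6.02 (adjusted p = 0.00335). These 2 genes thus stood higher in low cells than in both neighbouring gates. Krt19 had 5.84 in high cells and 7.36 in low cells (adjusted p = 0.0273), below 9.50 in negative cells. The tuft cell list stood higher still in high cells, with a median difference, high minus low, of 1.64. Dclk1 averaged 11.24 in high cells and 9.67 in low cells, and Trpm5 10.90 and 9.20. Neither passed the test (adjusted p = 0.23 and 0.191).

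The arrays of tamoxifen mice hold the same pair of populations in separate samples (4 arrays each). There 496 genes (2.24%) were called between low and negative cells, 113 higher (0.509%) and 383 lower (1.73%). Of the 411 genes higher in control low cells, 334 (81.3%) had a positive difference in tamoxifen mice and 48 (11.7%) were called higher there. Of the 757 lower genes, 683 (90.2%) had a negative difference and 78 (10.3%) were called lower. The share of all genes with each sign in tamoxifen mice was not worked out, so the 81.3% and 90.2% have no background beside them. The median difference of these gene sets was 0.32 and -0.41 in tamoxifen mice, against 1.13 and -1.20 in control mice, where the genes had been selected. Mug1 differed by 4.24 in tamoxifen mice (adjusted p = 7.7e-06), Chia1 by 1.01 (adjusted p = 0.00035) and Muc5ac by -2.46 (adjusted p = 0.0101). The tuft cell list had a median difference of 0.05 in tamoxifen mice, against 1.55 in control mice. For Blm the difference was -0.31 in tamoxifen mice, and the interaction, control minus tamoxifen, was 3.29 (adjusted p = 0.000155). The interaction was called for 186 genes (0.839%), 16 of them among the 105 named.

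**Figure D5:**
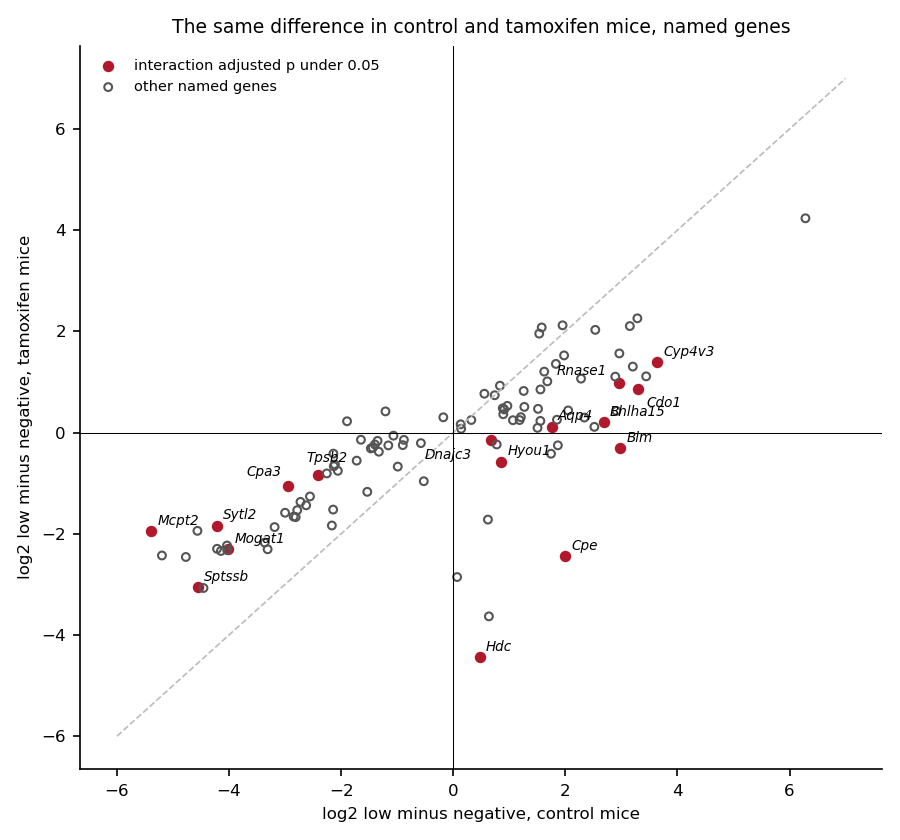
Log2 difference, low minus negative, in tamoxifen mice (y axis) against control mice (x axis) for 105 named genes. Filled red points have an interaction adjusted p under 0.05, and the dashed line marks equal differences. Blm, Hdc and Cpe lie below the zero line in tamoxifen mice.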

How the data were processed

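Total RNA of sorted corpus cells was amplified, labelled with biotin and hybridised, per the labels' protocols. The deposited table holds log2 signal for 41345 probe sets on 21 arrays, made by the authors. R 3.2.3, limma 3.26.8, RMA and oligo are listed in the submitters' processing notes, without role or order. Array medians ran from 3.95 to 4.25. A genome build is not given in the sources used here. The number of arrays limits the precision.

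Probe sets naming 1 gene (23521) were kept, symbols were updated by gene number for 23328, and each gene took its brightest row over 21 arrays, which left 22180 genes. Group means of the 6 groups were fitted with limma 3.58.1 in R 4.3.3 (lmFit, eBayes, 15 residual degrees of freedom, two-sided), with Benjamini-Hochberg adjustment over all genes. The fit was tested on simulated data. SD and n refer to 3 arrays a group.

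Arrays of the same sorting run shared deviations from their group means (correlations across genes of 0.135, 0.292 and 0.153 for runs 1, 2 and 3), and the design text ties replicates to individual runs, so the numbers pair the samples. The main fit does not use this pairing, so main counts, SEs and adjusted p-values are those of unpaired groups. With the run as a random block, the consensus correlation was 0.0749 and 1353 genes were called, against 1168 in the main fit. With the run as a fixed block over the 6 arrays, 2152 were called. Fits with the run as a block are given where they change the call of any of the 105 named genes, and for the counts of several lists.

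Named genes were the 12 largest differences each way among called, non-overlapping genes, up to 5 called members of each of 36 lists, and a panel of 31 genes. Receptor families, predicted genes and small RNAs were left out of the first set. Other genes were named after their values were seen, as list members with or without a call. The comparison and the lists were chosen with earlier results of these data known. Alternatives were cyclic loess, the mean of a gene's rows, trend and robust variance, array weights, fewer arrays, no dim genes, a 2-fold minimum, run blocks and leaving out each array.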

Additional observations from a re-analysis of the deposited data

Results flagged for a closer look

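For 16 named genes, the difference between low and negative cells was not the same in control and tamoxifen mice by the interaction term of the limma fit. The interaction is control minus tamoxifen. Hdc, which makes histamine, differed by -4.44 in tamoxifen mice and 0.47 in control mice (interaction 4.91, adjusted p = 0.000207). Cpe differed by -2.44 in tamoxifen mice and 1.99 in control mice (interaction 4.43, adjusted p = 0.00305). Blm differed by -0.31 and 2.98 (interaction 3.29, adjusted p = 0.000155). Cdo1 differed by 0.87 and 3.30 (interaction 2.43, adjusted p = 0.00736). Hyou1 differed by -0.58 and 0.86 (interaction 1.44, adjusted p = 0.00305). Mcpt2 differed by -1.94 and -5.39 (interaction -3.45, adjusted p = 0.00512). Mogat1 differed by -2.30 and -4.01 (interaction -1.71, adjusted p = 0.00736). These 7 interactions kept their call without each control array and with the run as a block.

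Bhlha15 differed by 0.20 in tamoxifen mice and 2.68 in control mice (interaction 2.48, adjusted p = 0.0232). Cyp4v3 differed by 1.39 and 3.63 (interaction 2.25, adjusted p = 0.029), and Rnase1 by 0.98 and 2.96 (interaction 1.98, adjusted p = 0.0351). For Sytl2 the values were -1.84 and -4.22 (interaction -2.38, adjusted p = 0.0314), and for Dnajc3 -0.15 and 0.67 (interaction 0.82, adjusted p = 0.0363). These 5 interactions lost their call when any control array but low 3 was left out, with adjusted p up to 0.0784, 0.1, 0.123, 0.107 and 0.126 in that order. With the run as a block, the adjusted p was 0.0152, 0.0641, 0.0894, 0.0305 and 0.0905.

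Aqp4 differed by 0.12 in tamoxifen mice and 1.76 in control mice (interaction 1.64, adjusted p = 0.0354), and lost the call when low 1, negative 1, negative 2 or negative 3 was left out (adjusted p up to 0.0989, without negative 2). Tpsb2 differed by -0.83 and -2.40 (interaction -1.57, adjusted p = 0.0249), and lost it when low 1, low 2, negative 1 or negative 2 was left out (adjusted p up to 0.0929, without negative 1). Cpa3 differed by -1.07 and -2.95 (interaction -1.88, adjusted p = 0.0216), and lost it when low 1, negative 1 or negative 2 was left out (adjusted p up to 0.0822, without negative 1). Sptssb differed by -3.05 and -4.56 (interaction -1.51, adjusted p = 0.0363), and lost it when any 1 array was left out (adjusted p up to 0.11, without negative 1). With the run as a block none of the 4 passed (adjusted p = 0.112, 0.0891, 0.0514 and 0.0514).

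In 2 of 64 groups of 4 tamoxifen arrays checked over 32 genes, 1 sample lay far from the other three. Chance flags about 1 group in 20. Reg3g stood at 11.16 in tamoxifen low 4, with the others between 9.05 and 9.22, and Cpe stood at 8.70 in tamoxifen low 4, with the others between 6.08 and 6.42.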

How the results depend on the processing

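Of the 87 named genes called, 54 kept their call when each of the 6 arrays was left out in turn and 33 lost it at least once, with no change of sign. Leaving out 1 array gave 189 to 396 higher genes, 248 to 880 lower, 437 to 1276 in all, 71 to 202 interactions and 443 to 492 tamoxifen calls. Of the main 1168 calls, 429 remained among the 437 without low 1 and 1023 among the 1276 without low 3. The cause of these shifts was not tested. Array weights gave 980 higher, 1657 lower, 2637 in all and 499 interactions. A fit of only the 6 arrays gave 715 higher and 1807 in all. A 2-fold minimum gave 250, 489 and 739. The replicate block over 6 arrays gave 830, 1322 and 2152, and over 21 arrays 1436 in all. Apart from the genes given with their blocked values above, the block changed the call of none of the 105 named genes, which do not include Cym. The sign turned for 2 genes without a call. Muc6 differed by 0.042 with array weights and by -0.42 to 0.16 when each array was left out (positive without low 1 or negative 2), and Ghrl by -0.32 to 0.54 (negative without low 2, low 3 or negative 1). Under cyclic loess 512 genes were higher and 681 lower. Of genes higher in low cells 59, and of those lower 91, had a dimmer group at or under the background guide, where the signal bounds the fold from below.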

Other observations

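Gene families outside the lists were looked at after their values were seen, so their counts are descriptions. Families of enzymes grouped by gene symbol differed in how many members were called, and in which direction. Of 21 measured glutathione S-transferases, 6 fell and none rose (median -0.58). Gsta3 had 4.43, 4.61 and 5.19 in low cells, against 8.65, 8.53 and 8.89 in negative cells (log2 difference -3.94, SE 0.27, 15.4-fold lower, adjusted p = 2.18e-08). Mgst3 and Gsta4 were 3.87-fold lower and 3.41-fold lower (adjusted p = 0.000186 and 0.000104). Gstm1 lost its call when low 1, low 2, negative 1, negative 2 or negative 3 was left out (adjusted p up to 0.143, without low 1), and Gstm3 when low 1, low 2, negative 1 or negative 3 was left out (adjusted p up to 0.215, without low 1). Of 21 aldehyde dehydrogenases, 4 rose and 1 fell (median 0.23). Aldh1l2, a mitochondrial enzyme of folate metabolism, was at least 3.96-fold higher (adjusted p = 0.000317). The other 3 that rose were Aldh7a1 (1.33, adjusted p = 0.0404), Aldh6a1 (0.89, adjusted p = 0.0493) and Aldh18a1 (0.86, adjusted p = 0.0191). Aldh7a1 lost its call when low 1, low 2, negative 1, negative 2 or negative 3 was left out (adjusted p up to 0.179, without low 2). Aldh6a1 lost it when low 1, low 2, negative 1, negative 2 or negative 3 was left out (adjusted p up to 0.252, without low 1), and with the run as a block over 21 arrays (adjusted p = 0.0588). Aldh18a1 lost it when low 1, low 2, negative 2 or negative 3 was left out (adjusted p up to 0.103, without low 1). Aldh3a1 fell, at least 9.38-fold lower (adjusted p = 0.00359). Of 14 aldo-keto reductases 3 fell and none rose (median -0.07), with Akr1c14 8.02-fold lower (adjusted p = 0.000357). Of 21 sulfotransferases 3 fell and none rose (median -0.09), and 16 lay at or under the guide in both groups. Of 11 gasdermins, which form pores in membranes, 4 fell and none rose (median -0.12). Gsdmc2 had 1.92, 2.02 and 2.18 in low cells, against 5.81, 5.59 and 5.86 in negative cells (at least 3.01-fold lower, adjusted p = 2.37e-07). Il18, a cytokine of epithelium, had 3.995, 5.82 and 5.59 in low cells, against 8.85, 9.18 and 8.96 in negative cells (log2 difference -3.86, SE 0.45, 14.6-fold lower, adjusted p = 1.66e-05). Anxa3, an annexin, was at least 11.0-fold lower (adjusted p = 1.71e-06).

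Single genes outside the lists, also picked after their values were seen, were higher in low cells. Derl3, which removes misfolded proteins from the endoplasmic reticulum, had 9.44, 8.77 and 7.76 in low cells, against 6.03, 5.61 and 5.83 in negative cells (log2 difference 2.83, SE 0.40, 7.12-fold higher, adjusted p = 0.000186). Ero1b, which forms disulphide bonds in secretory cells, was 5.45-fold higher (adjusted p = 0.000174). Slc7a8 and Slc7a5, amino acid transporters, were 5.71-fold higher and 4.32-fold higher (adjusted p = 0.00537 and 0.004). They were the only 2 of 16 measured Slc7 transporters called (median 0.11). Cckar, the receptor for cholecystokinin, had 11.09, 11.19 and 10.65 in low cells, against 8.95, 8.63 and 8.54 in negative cells (log2 difference 2.27, SE 0.40, 4.83-fold higher, adjusted p = 0.00201). Apoa1 and Apoa4, apolipoproteins, were 3.66-fold higher and 3.18-fold higher (adjusted p = 0.00329 and 0.00643). Nupr1, a stress-induced nuclear protein, was 4.06-fold higher (adjusted p = 1.49e-05).

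Genes with the array pattern of the tuft cell list, highest in low 1 and lowest in negative 2, included Spib, a transcription factor, and Sh2d7, an adaptor. Spib had 8.88, 7.002 and 7.68 in low cells, against 5.85, 3.78 and 6.07 in negative cells (adjusted p = 0.0207), and lost its call when low 1 or negative 2 was left out (adjusted p up to 0.148, without low 1). Sh2d7 had 10.26, 8.57 and 9.28 in low cells, against 7.11, 5.72 and 7.27 in negative cells (adjusted p = 0.00771), and lost its call when low 1 or negative 2 was left out (adjusted p up to 0.0694, without low 1).

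Gast, gastrin, a hormone made mainly by the antrum next to the corpus, varied widely among the arrays of each group. It had 5.07, 10.28 and 12.54 in low cells, against 4.87, 5.46 and 11.24 in negative cells (adjusted p = 0.809). It was high in low 2 and in both arrays of run 3. Its part in the differences of other genes was not tested.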
